A study of Mus musculus with 6 samples.

Results

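Deoxynucleotides, the building blocks of DNA, reach a dividing cell by new synthesis and by salvage of free nucleosides, and a set of hydrolases removes damaged or misplaced nucleotides before a polymerase can use them. Transcripts of 10 enzymes of this supply line were followed in mouse lymphoma cells: Rrm1, Rrm2 and Tyms, which make deoxynucleotides, Dck and Tk1, which salvage deoxynucleosides, Dut, Itpa and Nudt1, which cleanse the pool of uracil, deaminated and oxidised nucleotides, Samhd1, which breaks deoxynucleoside triphosphates down, and Dnph1, which splits certain deoxynucleoside monophosphates. They were picked by gene symbol from 18784 genes, and each of the 10 had 1 probe set. Dnph1 was chosen because it was already known to be among the genes most reduced in these data. The 9 others were added by function, also with earlier results known. The hairpin differences of all 10 are therefore a description, and nothing is supported with their counts.

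The arrays came from cells whose genotype is given as Arf-/-Eu-myc/Bcl-2 lymphomas, so cells of both groups lack the tumour suppressor Arf and carry a Myc transgene driven by the B-cell Eu enhancer and a Bcl-2 transgene. Cells of 3 arrays were transduced with the short hairpin RNA Dhx9.1241, named for the RNA and DNA helicase gene Dhx9, and cells of 3 arrays with the control hairpin Rluc.713, named for Renilla luciferase. All were grown on irradiated Arf-/- mouse embryonic fibroblasts, and no drug is named for these arrays, although the study concerned resistance to the BCL-2 family inhibitor ABT-737. Age, strain, the number of founding tumours and whether replicates were separate cultures are not given in the labels, so the spread between replicates may be technical. With 1 hairpin against Dhx9, loss of Dhx9 and other actions of that hairpin cannot be told apart.

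Values are log2 levels made by robust multi-array average (RMA), a method that background-corrects, normalises and summarises the probes of each probe set. A difference of 1 is a doubling, and differences are Dhx9.1241 minus Rluc.713 throughout. Levels of different genes are not compared, since probes differ in brightness. The number of arrays, 3 a group, limits the precision. The helicase gene Dhx9 was at 11.46, 11.43 and 11.38 on the Dhx9.1241 arrays, against 12.40, 12.48 and 12.36 on the Rluc.713 arrays. Sample titles name Dhx29 in place of Dhx9, and Dhx29 had a difference of 0.04 (95% interval -0.08 to 0.17), so the arrays are called by their hairpin. The second principal component held 34.4% of the variance. On it Rluc.713 replicate 1 was at 16.7 and the other arrays between -5.61 and 3.62. Several results are therefore also given without that array. Means over 8 B cell markers were 12.44 to 12.51 on the Dhx9.1241 arrays and 12.52 to 12.61 on the Rluc.713 arrays. Of these markers 7 had a negative difference and 1 a positive one, beside 8924 and 9860 of all 18784 genes. Their median was -0.09, against 0.00 over all genes. Means over 8 T and NK cell markers were 7.31 to 7.35 on the Dhx9.1241 arrays and 7.26 to 7.34 on the Rluc.713 arrays. In these lists 1 B cell marker, Vpreb3, passed the threshold given below as lower (-0.57), and no T or NK cell marker passed. With p left unadjusted and under 0.05, which holds for 8.5% of all genes as higher and 5.63% as lower, 1 B cell marker was higher, Ms4a1 (0.31), and 2 lower, Vpreb3 and Ebf1 (-0.17), and 1 T or NK cell marker was higher. The fibroblast markers, for the feeder layer, averaged 7.88 to 7.91 on the Dhx9.1241 arrays and 7.88 to 8.05 on the Rluc.713 arrays. Over all genes, 2.07% were higher and 1.07% lower at an adjusted p under 0.05 in limma, a linear model fitted to every gene with Benjamini-Hochberg adjustment.

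Dnph1 was lower in the Dhx9.1241 cells on every array, while the 9 other enzymes differed little between the hairpins. Dnph1, formerly named Rcl, encodes 2'-deoxynucleoside 5'-phosphate N-hydrolase, and in human cells it removes 5-hydroxymethyl-deoxyuridine monophosphate, a modified nucleotide that salvage would otherwise pass on to DNA. Its level (probe set 381101_at) was 10.52, 10.40 and 10.47 in Dhx9.1241 replicates 1 to 3, against 11.49, 11.61 and 11.65 in Rluc.713 replicates 1 to 3. The groups were far apart: the highest Dhx9.1241 array lay 0.96 below the lowest Rluc.713 array, while arrays of 1 group spanned 0.12 in Dhx9.1241 and 0.16 in Rluc.713. The mean was 10.47 ± 0.060 in Dhx9.1241 and 11.58 ± 0.083 in Rluc.713 (SD, n = 3 each). The log2 difference was -1.12 (SE 0.060, 95% interval -1.25 to -0.98), which puts the Dhx9.1241 level at 46.2% of the Rluc.713 level. Only 1 of the 18784 genes had a more negative difference. These are bulk cultures, in which fewer cells with a transcript and less of it per cell cannot be told apart.

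**Figure D1:**
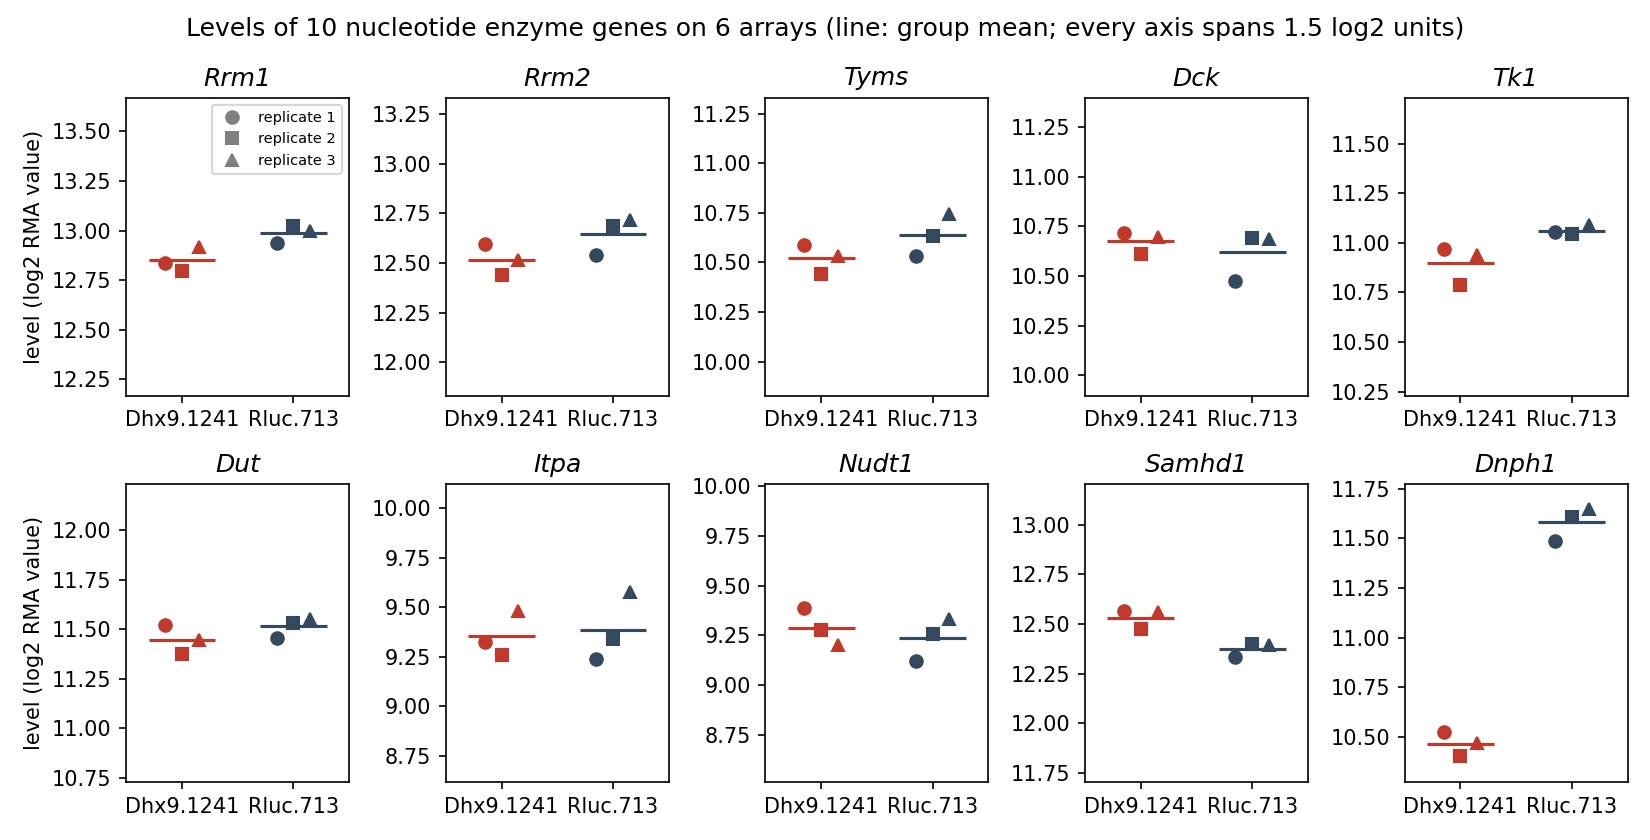
Levels of the 10 enzyme genes as log2 RMA values, with Dhx9.1241 left of Rluc.713 in each panel, 1 point per array (symbols mark the replicate number) and a line at the group mean. Dnph1 separates by 0.96 between the nearest arrays of the groups, while the groups of Rrm2, Tyms, Dck, Dut, Itpa and Nudt1 overlap.

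Dnph1 was first described as a transcript that responds to the MYC oncoprotein, and MYC with its partner MAX binds the E-box CACGTG. Because the cells are driven by a Myc transgene, the bases before the start of Dnph1 are shown with those of Tyms, the other of the 10 genes that holds this E-box. Each is the 250 bases before the annotated start in RefSeq on build GRCm38.p6, at chr17:46496539-46496788 on the plus strand for Dnph1 and chr5:30073626-30073875 on the minus strand for Tyms, written 5′ to 3′ along the gene. All 10 genes were matched to RefSeq starts, with 12 windows in all. Capitals mark the E-box CACGTG and, in Dnph1, also the sequence CCAAT, which the factor NF-Y binds.
Dnph1: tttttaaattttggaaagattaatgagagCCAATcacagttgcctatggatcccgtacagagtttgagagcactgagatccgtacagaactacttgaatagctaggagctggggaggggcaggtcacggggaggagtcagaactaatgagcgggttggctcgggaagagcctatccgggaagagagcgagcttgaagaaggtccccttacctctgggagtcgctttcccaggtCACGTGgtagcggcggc
Tyms: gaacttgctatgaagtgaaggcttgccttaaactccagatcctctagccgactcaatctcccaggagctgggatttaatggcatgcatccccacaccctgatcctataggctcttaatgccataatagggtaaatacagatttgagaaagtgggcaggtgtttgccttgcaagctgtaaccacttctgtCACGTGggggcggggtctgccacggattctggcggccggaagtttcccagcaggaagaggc

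The E-box of Dnph1 begins 17 bases before the start and that of Tyms 61 bases before it. CACGTG reads the same on both strands and stood in 6.02% of 32851 mouse promoter windows of 250 bases. CCAAT, read on both strands, began 221 bases before the Dnph1 start. It was also found before Rrm1, Rrm2 and Nudt1, and stood in 33.8% of windows. The sequence TTTNGCGC, where N is any base, is a form of the site of the S phase factors E2F and stood in 1.13% of windows. Among these genes it stood in 2 of the 3 windows of Nudt1, which overlap and hold the same site, TTTAGCGC. These motifs do not overlap one another in Dnph1. The hairpin difference was -1.12 (95% interval -1.25 to -0.98) in Dnph1 and -0.12 (95% interval -0.27 to 0.04) in Tyms. A part of MYC, or of any of these motifs, in the 2 differences was not tested.

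Genes beside Dnph1 on the chromosome had differences near 0. These neighbours, the 5 nearest protein-coding genes on each side in RefSeq, were looked up after the Dnph1 value was known. None of the 10 passed the threshold in limma, against 3.14% of all genes in either direction, and their differences ran from -0.10 in Srf to 0.15 in Slc22a7. Ttbk1, a tau kinase gene, flanks Dnph1 on one side, at 8.57, 8.50 and 8.50 on the Dhx9.1241 arrays, against 8.58, 8.37 and 8.38 on the Rluc.713 arrays. Cul9, a cullin gene, flanks it on the other, at 8.54, 8.50 and 8.55 on the Dhx9.1241 arrays, against 8.56, 8.49 and 8.45 on the Rluc.713 arrays. Both sets of arrays overlapped.

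**Figure D2:**
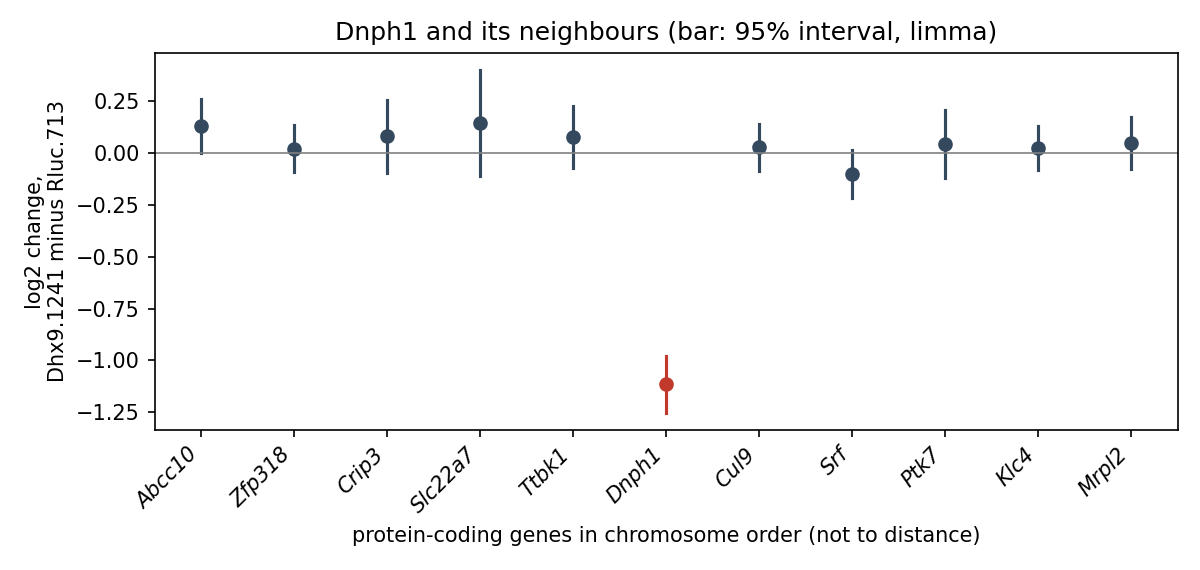
Log2 difference, Dhx9.1241 minus Rluc.713, of Dnph1 and the 10 protein-coding genes nearest to it in chromosome order, with bars for the 95% interval from limma. Dnph1 lies at -1.12 and its neighbours between -0.10 and 0.15.

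The genes whose pattern over the 6 arrays was most like that of Dnph1 were Dhx9, Pla2g7, Tgfb3, Ccr1 and Lyz2. Likeness was the root mean square distance between the genes' log2 levels after each gene's own mean was taken off. It was 0.095 for Dhx9, 0.114 for Pla2g7, which encodes the enzyme that degrades platelet-activating factor, and 0.117 for Tgfb3, a growth factor gene. Ccr1, a chemokine receptor gene, was also at 0.117, and Lyz2, the lysozyme gene of macrophages and neutrophils, at 0.121. This measure follows the size of the hairpin difference, so it finds other genes about equally reduced. Some of them varied more within groups than Dnph1 did. Ccr1 was at 7.17, 6.95 and 7.20 on the Dhx9.1241 arrays, against 7.88, 8.30 and 8.34 on the Rluc.713 arrays, so its Rluc.713 arrays spread more widely than those of Dnph1. Of 9 myeloid markers, 4 passed the threshold as lower and none as higher, against 1.07% and 2.07% of all genes. The mean level of the 9 was 8.96 to 9.03 on the Dhx9.1241 arrays and 9.22 to 9.35 on the Rluc.713 arrays. Without Lyz2 the mean of the other 8 was 8.93 to 8.98 on the Dhx9.1241 arrays and 9.05 to 9.19 on the Rluc.713 arrays. With p unadjusted, 5 of the 9 were lower and 2 higher, beside 5.63% and 8.5% of all genes. The higher ones were Itgam (0.21) and Fcgr3 (0.22), whose Dhx9.1241 arrays all lay above the Rluc.713 arrays. The part of myeloid RNA in the Dnph1 difference was not tested.

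The 3 synthesis genes lay slightly lower in Dhx9.1241, by amounts close to the spread between arrays. Ribonucleotide reductase turns ribonucleotides into deoxynucleotides, with Rrm1 encoding its large subunit and Rrm2 the small subunit that cells make in S phase. Rrm1 (20133_at) was at 12.83, 12.80 and 12.92 in Dhx9.1241 and at 12.94, 13.02 and 13.00 in Rluc.713. The groups did not overlap, but only 0.021 separated the nearest arrays, and the difference was -0.14 (SE 0.053, 95% interval -0.26 to -0.01). Without Rluc.713 replicate 1 it was -0.16. Rrm2 (20135_at) was at 12.60, 12.44 and 12.51 in Dhx9.1241 and at 12.54, 12.69 and 12.71 in Rluc.713. Rluc.713 replicate 1 fell among the Dhx9.1241 arrays here, and the difference was -0.13 (SE 0.065, interval -0.28 to 0.02), or -0.18 without that array. Both subunits thus stood at about the same share of their control level, 91.0% for Rrm1 and 91.3% for Rrm2. Tyms (22171_at), thymidylate synthase, which methylates deoxyuridylate to thymidylate, was at 10.59, 10.44 and 10.53 in Dhx9.1241 and at 10.53, 10.63 and 10.74 in Rluc.713. Again Rluc.713 replicate 1 lay within the other group, and the level was 92.3% of control, a difference of -0.12 that was -0.17 without that array.

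The salvage kinase genes had small differences of opposite sign. Tk1, thymidine kinase of the cytosol, whose transcript and protein are known to peak in S phase, phosphorylates thymidine. Its level (21877_at) was 10.97, 10.79 and 10.94 in Dhx9.1241, against 11.05, 11.04 and 11.09 in Rluc.713. All Dhx9.1241 arrays were below all Rluc.713 arrays by at least 0.074, and the difference was -0.16 (SE 0.060, interval -0.30 to -0.03), the most negative among the 9 enzymes other than Dnph1 with all arrays. Without Rluc.713 replicate 1 it was -0.17, and Rrm2, at -0.18, was then the most negative. Without Dhx9.1241 replicate 2, the lowest array for Tk1, the Tk1 difference was -0.11. Dck, deoxycytidine kinase, which also activates cytidine analogue drugs, was at 10.72, 10.61 and 10.70 in Dhx9.1241 (13178_at) and at 10.48, 10.69 and 10.69 in Rluc.713. Only Rluc.713 replicate 1 stood below the rest, and the difference of 0.06 (interval -0.10 to 0.22) became -0.01 without that array.

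The pool-cleansing genes Dut, Itpa and Nudt1 overlapped between the hairpins. Dut, whose enzyme splits dUTP and so keeps uracil out of DNA, was at 11.52, 11.37 and 11.45 in Dhx9.1241 (110074_at) and at 11.45, 11.53 and 11.55 in Rluc.713. The difference was -0.07 (SE 0.057, interval -0.20 to 0.06), or -0.10 without Rluc.713 replicate 1. Itpa, which removes inosine and deoxyinosine triphosphates, varied most between replicates among the 10 genes, at 9.32, 9.26 and 9.48 in Dhx9.1241 (16434_at) and 9.24, 9.34 and 9.58 in Rluc.713. Its interval, -0.25 to 0.19, is the widest of the 10, and its small difference of -0.03 turned positive without Dhx9.1241 replicate 2 (0.02) or Rluc.713 replicate 3 (0.07). Without Rluc.713 replicate 1 it was -0.10. Nudt1, also called MTH1, hydrolyses oxidised purine triphosphates such as 8-oxo-dGTP. It was at 9.39, 9.28 and 9.20 in Dhx9.1241 (17766_at) and at 9.119, 9.26 and 9.33 in Rluc.713, a difference of 0.05 (interval -0.11 to 0.22) that was -0.01 without Rluc.713 replicate 1.

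Samhd1 had the most positive difference of the 10. Its enzyme cuts deoxynucleoside triphosphates to deoxynucleosides and phosphate, limits retroviruses in myeloid cells and is known to be raised by interferon in several cell types. Samhd1 (56045_at) was at 12.56, 12.47 and 12.56 in Dhx9.1241 and at 12.34, 12.40 and 12.39 in Rluc.713. All Dhx9.1241 arrays lay above all Rluc.713 arrays, by at least 0.075, and the difference was 0.16 (SE 0.050, interval 0.04 to 0.27), a level 111% of control. The mean of the 9 myeloid markers described above was lower in Dhx9.1241, with Lyz2 at -1.31, while Itgam and Fcgr3 of that list were higher, at 0.21 and 0.22. Their part in the Samhd1 value was not tested. Cmpk2, a mitochondrial nucleotide kinase gene that interferon also raises, was looked up for its function, outside the naming rule. It was at 9.33 or above on the Dhx9.1241 arrays and at 9.22 or below on the Rluc.713 arrays, a difference of 0.24 that did not pass the threshold (adjusted p = 0.136 in limma). Cmpk2 was picked with earlier results known, and a part of interferon in its difference or in that of Samhd1 was not tested.

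**Figure D3:**
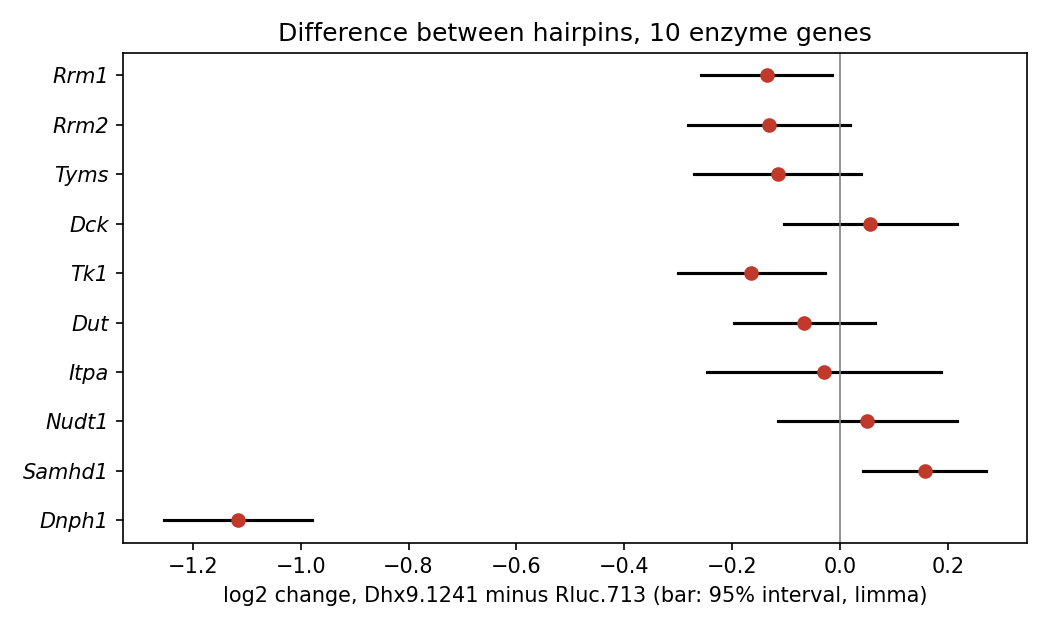
Log2 difference, Dhx9.1241 minus Rluc.713, of the 10 enzyme genes in order of role, from synthesis at the top to breakdown at the bottom, with bars for the 95% interval from limma. Dnph1 lies at -1.12, and the intervals of the 9 others stay between -0.30 and 0.27.

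Counted together, 1 of the 10 genes passed the threshold as lower, Dnph1, which was chosen for that difference, and none as higher, against 1.07% and 2.07% of all genes. The unadjusted limma p was under 0.05 for Dnph1, Tk1 and Rrm1 as lower and for Samhd1 as higher, beside 5.63% of all genes as lower and 8.5% as higher, so 1 higher of 10 is near the background. Groups did not overlap for the same 4 genes, with 3 below and 1 above, beside 20.1% of all genes, 8.51% below and 11.6% above. The median difference was -0.09 over the 10 genes and -0.07 over the 9 without Dnph1, against 0.00 over all genes. Taken gene by gene, the limma intervals of the 9 lay between -0.30 (Tk1) and 0.27 (Samhd1), and none reached the difference of Dnph1. These intervals rest on the spread between replicates, which may be technical, so they set no limit on differences between separate cultures. With a variance trend and robust estimation, limma also called Rrm1 as lower and Samhd1 as higher, the only alternative of 14 that called a gene of the 10 other than Dnph1.

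Within each group, most of the 10 genes shared the same low array. Rluc.713 replicate 1 held the lowest control value for 9 of the 10, all but Tk1, and Dhx9.1241 replicate 2 held the lowest Dhx9.1241 value for 9, all but Nudt1. The median of the 10 genes' deviations from their group means was 0.063, -0.070 and 0.017 on Dhx9.1241 replicates 1 to 3 and -0.099, 0.022 and 0.067 on Rluc.713 replicates 1 to 3. All 10 genes are among the brighter genes, those at or above the median level, and these shifted in the same direction on 5 of the 6 arrays, by smaller amounts: 0.025, -0.013 and -0.011 on the Dhx9.1241 arrays and -0.041, 0.019 and 0.021 on the Rluc.713 arrays. The exception was Dhx9.1241 replicate 3. Genes below the median level shifted the other way from the brighter genes on each Rluc.713 array, by 0.076, -0.042 and -0.032. On the Dhx9.1241 arrays they shifted by 0.0071, 0.017 and -0.023. Of the brighter genes, 64.3% had their lowest control value on Rluc.713 replicate 1, and 44.6% their lowest Dhx9.1241 value on replicate 2. Without Rluc.713 replicate 1, 8 of the 9 genes other than Dnph1 had a negative difference, the lowest at -0.18 in Rrm2, and Samhd1 alone a positive one (0.14). With all arrays 6 were negative and 3 positive. The part of this array in the small differences beyond these values was not tested.

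**Figure D4:**
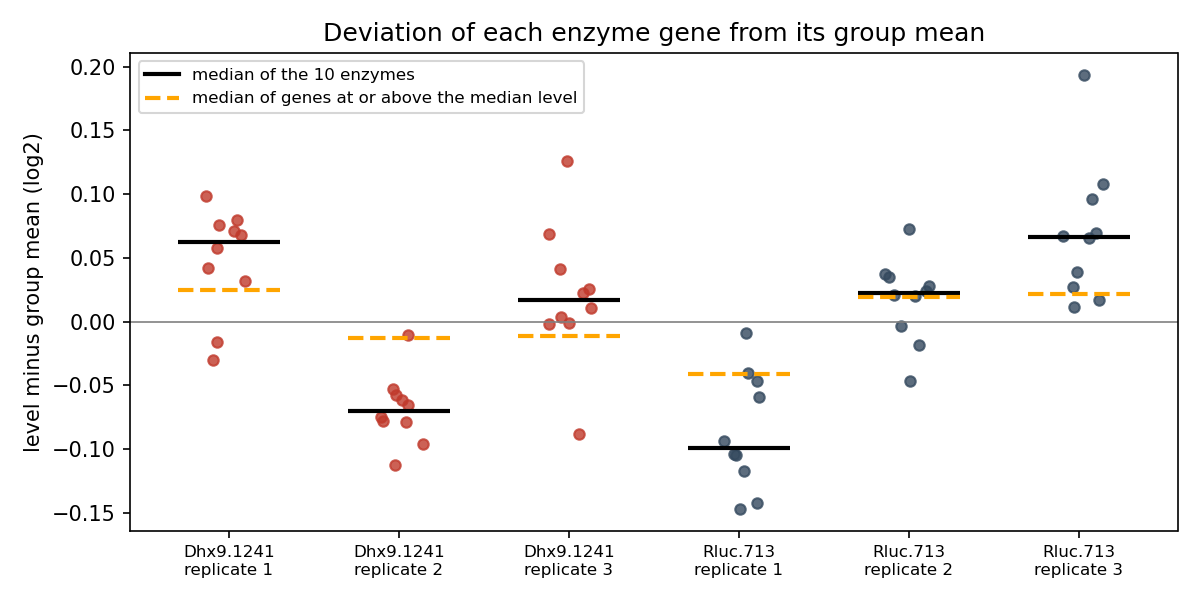
Deviation of each of the 10 enzyme genes from its group mean on each array (log2 units, 1 point per gene), with the median of the 10 as a black line and the median of all genes at or above the median level as a dashed orange line. The medians of the 10 are lowest on Dhx9.1241 replicate 2 (-0.070) and Rluc.713 replicate 1 (-0.099).

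Other genes of nucleotide metabolism were counted in 7 lists written from general knowledge. Of 135 measured genes, 1 passed the threshold as higher in Dhx9.1241 and none as lower, against 2.07% and 1.07% of all genes. With an unadjusted p under 0.05 in limma, 12 were higher and 12 lower, beside 8.5% and 5.63% of all genes, shares that also stand behind the unadjusted counts of each list below, and the median difference over all 135 was 0.00. The gene that rose was Ak1, an adenylate kinase gene also known as a p53 target, at 8.67, 8.66 and 8.57 in Dhx9.1241, against 8.36, 8.34 and 8.38 in Rluc.713. The groups were apart, with a difference of 0.27 (SE 0.049, adjusted p = 0.0249 in limma). Ak1 passed in 1 of the 6 fits that leave out an array, that without Rluc.713 replicate 1, and in 8 of 14 alternatives in all (adjusted p 0.00686 to 0.127 over the 14).

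Genes that supply the same steps as the 10 enzymes gave no further calls at the threshold in the main fit. In the list of nucleotide kinases and the thymidylate cycle, with 25 measured genes, 24 did not pass and the median was -0.03. Unadjusted, 4 were higher (Ak1, Cmpk2, Ak3 and Dctd) and 2 lower, beside 8.5% and 5.63% of all genes. The lower ones, outside the naming rule, were Mthfd2 at -0.21 (adjusted p = 0.0584 in limma) and Mthfd1l at -0.16 (adjusted p = 0.132 in limma). Their groups did not overlap, and both passed as lower in some of the 14 alternatives. Chosen by function, outside the naming rule, Rrm2b, the small reductase subunit that p53 controls, was at 9.34, 9.26 and 9.33 in Dhx9.1241 and 9.23, 9.45 and 9.39 in Rluc.713, which overlapped. Dctd, which deaminates dCMP to the substrate of thymidylate synthase, had a difference of 0.13 (interval 0.03 to 0.23), and Dtymk, which phosphorylates thymidylate, one of -0.07 (interval -0.18 to 0.04). None of 12 purine synthesis genes passed, with Impdh1 at 0.14 and Prps2 at 0.12, and 2 were higher and none lower when p was left unadjusted. None of 5 pyrimidine synthesis genes passed either, with Dhodh at 0.15 and Cad at 0.11, and 1 was higher and none lower unadjusted. In salvage, breakdown and transport none of 24 passed in limma, with none higher and 3 lower unadjusted (8.5% and 5.63% of all genes). The largest differences there were those of Mtap, which recycles methylthioadenosine, at -0.20 (adjusted p = 0.0785 in limma), and Pnp at -0.17. Pnp2, a near-identical copy with its own probe set, was at -0.11 (interval -0.27 to 0.05). Whether their probe sets share signal was not tested, so the Pnp value is uncertain. Mtap passed as lower in some of the 14 alternatives, among them the fit without Rluc.713 replicate 1. Cda had a difference of 0.10 and passed as higher only without that array (0.25). Ak3, Dctd and Prps2 also passed as higher under some alternative.

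The other cleansing enzymes and the repair genes that act downstream gave no calls in the main limma fit. Of 28 sanitation enzymes and nucleotidases none passed, with 2 higher and 4 lower unadjusted (8.5% and 5.63% of all genes). Nudt12, a hydrolase of nicotinamide dinucleotides, was at 7.04, 6.87 and 6.92 in Dhx9.1241 and 7.12, 7.20 and 7.14 in Rluc.713, a difference of -0.21 (adjusted p = 0.123). Entpd5, a diphosphatase of the endoplasmic reticulum, was at 10.81, 10.79 and 10.73 in Dhx9.1241 and 10.59, 10.57 and 10.59 in Rluc.713, a difference of 0.20 (adjusted p = 0.0673). Both had groups that did not overlap. Among the alternatives, Nudt12 passed as lower with array weights, and Entpd5 passed as higher in some fits. Nudt3, Nudt16l1, Hddc2 and Entpd1 were also called lower under some alternative, Entpd1 without Rluc.713 replicate 1 (-0.27). Of 18 base excision genes none passed, with 2 higher and none lower unadjusted (8.5% and 5.63% of all genes). Smug1, chosen by function because its glycosylase removes 5-hydroxymethyluracil from DNA, the base that DNPH1 keeps out of the pool, was at 7.95, 7.94 and 7.93 in Dhx9.1241 and 7.92, 7.81 and 7.97 in Rluc.713. Tdg, another glycosylase gene, had the largest difference of the 135 genes, -0.49, but its Rluc.713 arrays spread over 5.85, 5.90 and 6.80 and overlapped the Dhx9.1241 arrays at 5.97, 5.43 and 5.69 (adjusted p = 0.46). Tdg and Nudt12 were dim, below the lowest array median of 8.43 on every array. Neil1, a glycosylase gene for oxidised bases, stood at 0.17 (adjusted p = 0.178).

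Tk1, Rrm2 and Tyms are known to follow S phase, so 23 other S phase genes are given beside them. None passed in limma, with 1 higher and 3 lower unadjusted (8.5% and 5.63% of all genes), and their median difference was 0.00. Ccne1, the cyclin gene of S phase entry, was at 0.17 (adjusted p = 0.133) and Mcm4, a subunit of the replicative helicase, at -0.17 (adjusted p = 0.142). Both passed in some of the alternatives, Ccne1 as higher and Mcm4 as lower. The differences of Tk1 (-0.16), Rrm2 (-0.13) and Tyms (-0.12) lie below that median, towards the low end of the range of these genes (-0.17 to 0.17).

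**Figure D5:**
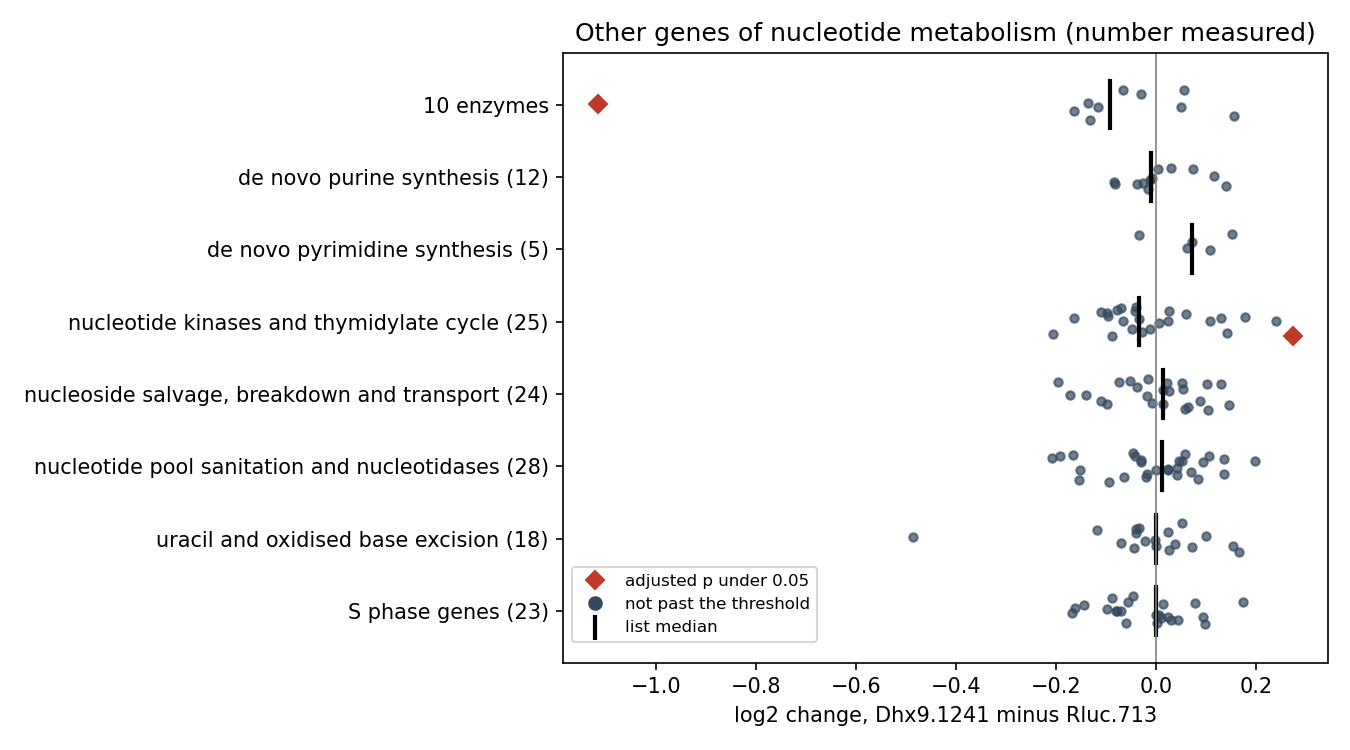
Log2 difference, Dhx9.1241 minus Rluc.713, of the 10 enzymes and of 135 other genes in 7 lists, 1 point per gene, with red diamonds for genes at an adjusted p under 0.05 in limma and a black line at each list's median. Dnph1 at -1.12 and Ak1 at 0.27 are the diamonds, and Tdg at -0.49, not past the threshold, is the other point away from the rest.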

How the data were processed

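RNA of 6 lymphoma samples was measured on Affymetrix arrays. The deposited log2 values were made by RMA, per the submitters' processing notes; the sources used here do not give its version or the genome build. The log2 scale follows from the values, 3.97 to 14.6, with array medians of 8.43 to 8.51. Of 21212 probe sets, 18786 had 1 gene symbol in the platform annotation, 6 several and 2420 are unnamed here. Symbols were updated by Entrez number for 18775 from a RefSeq table of GRCm38.p6, and the brightest probe set was kept for 2 genes. The 18784 genes were fitted with limma 3.58.1 in R 4.3.3, Dhx9.1241 against Rluc.713, with no covariate and no filter, and the fit was tested on simulated data.

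Members and lists were chosen with earlier results of these data known. Besides the 10 enzymes and the hairpin's gene, the genes named were up to 4 called genes in each list, or the 2 with the largest change, and the 5 most like Dnph1; 11 list genes were not analysed here. The marker lists covered B cells, fibroblasts, myeloid cells, and T and NK cells. None of 14 fibroblast markers passed in limma. At an unadjusted p under 0.05, 2 were lower and none higher, beside 5.63% and 8.5% of all genes. Motifs were searched in RefSeq promoter windows. Alternatives were other normalizations, a filter on dim genes, means over probe sets, other variance models, the replicate number as a block, and leaving out each array.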

Additional observations from a re-analysis of the deposited data

How the results depend on the processing

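Dnph1 passed the threshold under all 14 alternatives, with a log2 difference of -1.16 to -1.08, and Dhx9 did too, at -1.02 to -0.96. Of the 10 enzymes, 1 was called higher and 2 lower with robust estimation and a variance trend, against 0 and 1 otherwise. Itpa turned to 0.018 without Dhx9.1241 replicate 2 and 0.067 without Rluc.713 replicate 3, and Dck to -0.015 and Nudt1 to -0.0075 without Rluc.713 replicate 1. Leaving out 1 array gave -0.10 to 0.067 for Itpa, -0.015 to 0.093 for Dck and -0.0075 to 0.099 for Nudt1, and none of these was called. Over all genes, 389 were higher and 201 lower. These counts were 673 and 466 with the variance trend, 669 and 542 with array weights, 609 and 382 among the brighter genes (mean level not below the median), and 172 and 92 with the replicate block; 353 were lower after quantile normalization again and 341 after cyclic loess. Leaving out 1 array gave 126 to 497 higher and 70 to 399 lower, and such fits have fewer arrays. Of the 135 list genes, 1 was higher and 0 lower. The counts were 6 and 6 with the variance trend, 2 and 7 with array weights, 4 and 5 among brighter genes, and 0 and 0 with the replicate block; 2 were lower after quantile normalization and 2 after cyclic loess, and leaving out 1 array gave 0 to 2 in each direction. The cause of these shifts was not tested. Replicate numbers are shared by the groups, but same-numbered arrays did not all deviate together over all genes (correlations -0.27, -0.34 and 0.24). The largest correlation was 0.48, between Dhx9.1241 replicate 2 and Rluc.713 replicate 1, so the numbers are not taken as a pairing. The block left the count of the 10 enzymes at 0 higher and 1 lower. Differences as small as those of the 9 enzymes are near what 3 arrays a group can resolve.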
